A study of Homo sapiens with 8 samples.

Results

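H3K27ac regions that ranked high in MP2_NTC control cells and had no peak in MP2_HDAC1_OE cells were described here. The peaks of both lines were merged into regions wherever they shared at least 1 bp. The 13341 merged regions with an MP2_NTC peak were ranked by their highest signal, and the strongest 33.3% (4447 regions) were kept. The 338 members were selected on this signal and on the absence of an MP2_HDAC1_OE peak, so both facts describe how they were chosen and are not results. They were 7.60% of these strongest regions and a small part of all 18678 merged regions. Over all signal strengths, 29.0% of the regions with an MP2_NTC peak (3864 regions) had no MP2_HDAC1_OE peak. In the opposite direction, 476 of the 4938 strongest MP2_HDAC1_OE regions, or 9.64%, had no MP2_NTC peak.

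Both lines derive from MIA PaCa-2, an established human pancreatic carcinoma line. MP2_HDAC1_OE is a stable CRISPRa line that carries the activators of lentiSAMv2 and lentiMPHv2 with an sgRNA for *HDAC1*, while MP2_NTC carries the same activators with a scrambled sgRNA that has no target. No drug treatment is given in the labels. Whether a line is 1 clone is not given in the sources used here. Each line had 2 H3K27ac samples and 2 samples without an antibody, and 1 peak list per line combined both H3K27ac samples. A list therefore has no replicates, holds no read counts and gives no sequencing depth, so no test across cultures was possible and no p-value is given. Intervals are 95% Wilson intervals for a share and Newcombe intervals for a difference of shares, and they cover counting error only. Signal is a positive number per peak with no known scaling across the lists, and a peak is therefore placed by the percentage of peaks of its own list with a lower signal. At *HDAC1* itself, 1 region had peaks of both lines (chr1:32291457-32291900) and 1 had an MP2_NTC peak alone (chr1:32292210-32292433, signal 46.7). Neither was among the strongest 33.3%, so *HDAC1* held 0 members.

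H3K27ac is acetylation of lysine 27 on histone H3, a mark of active promoters and active enhancers, and at an active promoter it lies on the nucleosomes on either side of the transcription start. HDAC1 is a histone deacetylase that removes acetyl groups from histones as part of the NuRD, SIN3 and CoREST complexes. Where a gene has several acetylated nucleosome groups, a peak caller can list them as separate peaks, so a region without a partner can lie beside a shared region or stand alone in a locus.

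The 250 bases before a listed start of 5 genes are shown. A member covered some or all of these bases, and no MP2_HDAC1_OE peak touched them. Each start is the listed one nearest the member's strongest summit. It need not be the 5′ end of the gene, so a stretch can hold transcribed bases. At *PIK3R1*, *BARD1* and *TMX3* the nearest MP2_HDAC1_OE peak was 502 kb or more away, at *VTI1B* it was 20.0 kb away and at *BRD9* it was 16 bp away. Sequences are from RefSeq (GRCh38.p14), read 5′ to 3′ along the gene. Capitals mark GC boxes (GGGCGG, or CCGCCC on the other strand) and NRF1 motifs (GCGCATGCG, or CGCATGCGC on the other strand).
PIK3R1: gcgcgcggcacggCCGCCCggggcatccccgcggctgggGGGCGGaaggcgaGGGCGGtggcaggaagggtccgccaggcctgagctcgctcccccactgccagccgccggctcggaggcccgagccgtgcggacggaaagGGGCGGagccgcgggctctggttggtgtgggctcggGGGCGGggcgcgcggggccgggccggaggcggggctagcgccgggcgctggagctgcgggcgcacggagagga
BARD1: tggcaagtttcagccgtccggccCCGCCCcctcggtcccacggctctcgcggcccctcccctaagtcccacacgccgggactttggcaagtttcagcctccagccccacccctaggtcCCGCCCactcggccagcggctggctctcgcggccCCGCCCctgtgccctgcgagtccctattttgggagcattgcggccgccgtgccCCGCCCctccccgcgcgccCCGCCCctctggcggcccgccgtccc
TMX3: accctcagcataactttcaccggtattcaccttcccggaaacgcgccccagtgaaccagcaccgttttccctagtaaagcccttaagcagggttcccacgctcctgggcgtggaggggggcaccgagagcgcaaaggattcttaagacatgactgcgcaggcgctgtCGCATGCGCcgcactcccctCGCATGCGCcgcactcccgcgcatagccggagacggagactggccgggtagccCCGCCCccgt
VTI1B: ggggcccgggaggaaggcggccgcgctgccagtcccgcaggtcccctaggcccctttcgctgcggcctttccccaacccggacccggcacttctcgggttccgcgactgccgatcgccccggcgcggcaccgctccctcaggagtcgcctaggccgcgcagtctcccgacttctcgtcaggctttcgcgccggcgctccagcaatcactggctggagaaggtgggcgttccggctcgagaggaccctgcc
BRD9: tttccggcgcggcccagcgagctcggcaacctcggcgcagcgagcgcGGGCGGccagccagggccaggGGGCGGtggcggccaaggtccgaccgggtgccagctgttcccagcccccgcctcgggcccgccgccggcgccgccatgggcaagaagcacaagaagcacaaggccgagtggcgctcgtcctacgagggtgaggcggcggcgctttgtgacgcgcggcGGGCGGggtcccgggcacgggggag
The *PIK3R1* stretch (chr5:68215506-68215755, plus strand) held 5 GC boxes, and the member covered 133 of its 250 bases. The *BARD1* stretch (chr2:214809684-214809933, minus strand) also held 5 GC boxes and was covered whole. The *TMX3* stretch (chr18:68715109-68715358, minus strand) held 2 NRF1 motifs and 1 GC box and was covered whole. The *VTI1B* stretch (chr14:67674633-67674882, minus strand) held 0 of the motifs searched and the *BRD9* stretch (chr5:892551-892800, minus strand) held 3 GC boxes. A match of letters is a description of the sequence and does not show that a factor binds there.

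The share of MP2_NTC regions without an MP2_HDAC1_OE peak fell with signal rank, from 61.5% in the weakest 10% of regions to 2.47% in the strongest 10% (33 of 1335 regions). The next classes of 10% after the strongest stood at 7.27% and 10.8%. This share uses the same values as the selection and is given as a description. The member signal ran from 69.1 to 157 with a median of 79.7. The deposited score was at its upper limit of 1000 in 322 members (95.3%) and the lowest was 603. The members just inside the threshold were nearest to *ACBD5*, *AGK*, *ITGB4*, *PPOX* and *MIER3*, with signals from 69.06 to 69.19. The unique regions just outside were nearest to *SEC31A*, *PLSCR1*, *NPM1*, *SESN2* and *VIM*, with signals from 68.92 to 69.02.

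**Figure D1:**
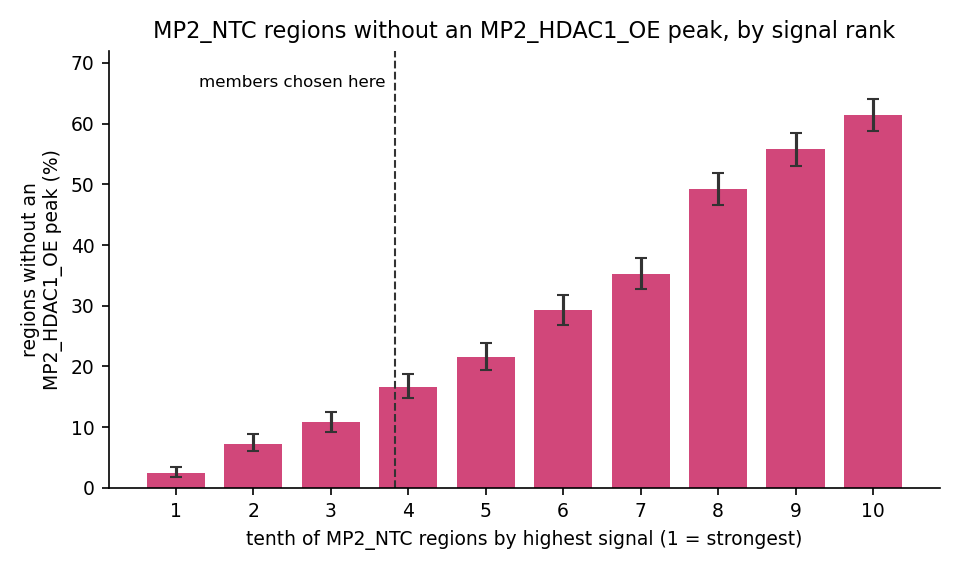
Bars give the percentage of MP2_NTC regions without an MP2_HDAC1_OE peak in each 10% of the ranking by highest signal (class 1 is the strongest), with 95% Wilson intervals. The dashed line marks the cutoff of 33.3%, and the bars rise from 2.47% in the strongest class to 61.5% in the weakest.

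Of the 12 members with the highest signal, 6 lay in the promoter window of a coding gene. A region at *CHD9*, which encodes a chromodomain helicase (chr16:53207990-53208383), had a signal of 127, above 98.2% of the MP2_NTC peaks. It lay 68 to 461 bp before the nearest listed gene start and 60 bp from an MP2_HDAC1_OE peak. At *EEF2*, the elongation factor that moves the ribosome along mRNA (chr19:3984856-3985428), the signal was 125 and an MP2_HDAC1_OE peak was 832 bp away. At *SMC4*, a core subunit of condensin (chr3:160399728-160400856), the signal was 115 and the distance 101 bp. At *VTI1B*, a SNARE of endosomal vesicle fusion (chr14:67674554-67674964), the signal was 112 and the distance 20.0 kb. The region at *PFAS*, an enzyme of purine synthesis, and *CTC1*, a telomere maintenance protein (chr17:8249334-8249831), had a signal of 111 and lay 109 bp from an MP2_HDAC1_OE peak. The region before *CCDC9* (chr19:47256005-47256463) had a signal of 111 and a distance of 1.19 kb.

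The remaining 6 of the 12 strongest members had no coding promoter window. The highest signal of all, 157, was at chr21:6371377-6371802 within the lncRNA *LOC102724701*. The next, 132, was at chr9:134164981-134166164, with its summit 28.9 kb after the start of *WDR5*, a subunit of histone H3K4 methyltransferase complexes. A region at the lncRNA *CLDN14-AS1* (chr21:36429709-36430727), whose nearest coding start was that of the chromatin assembly factor *CHAF1B*, had a signal of 118. Inside *BCAR3*, an adaptor of integrin and growth factor signaling (chr1:93769840-93770220), the signal was 114. At chr17:36722412-36723231, nearest to *MRM1* but with its summit 121 kb after that start, it was 112. The nearest MP2_HDAC1_OE peak was 29.0 kb from the *WDR5* region and 43.6 kb from the *CLDN14-AS1* region. It was 738 bp from the *BCAR3* region and 34 bp from the *MRM1* region.

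The distance from a member to the nearest MP2_HDAC1_OE peak spanned a wide range, with a median of 2286 bp and quartiles of 290 bp and 37.3 kb. An MP2_HDAC1_OE peak lay within 100 bp of 38 members (11.2%), within 500 bp of 116 (34.3%) and within 1 kb of 149 (44.1%, 38.9% to 49.4%). It was over 50 kb away from 68 members (20.1%) and over 100 kb away from 47 (13.9%). Members had a peak of the other line within 1 kb more often than the 3526 weaker unique MP2_NTC regions, at 31.0%, a difference of 13.1 percentage points (7.66 to 18.6). The weaker regions were at a median of 4821 bp. Strong regions unique to MP2_HDAC1_OE had an MP2_NTC peak within 1 kb in 41.8%, and the difference of 2.28 points had an interval from -4.58 to 9.15. All groups set side by side here lack an overlapping peak by selection, and distances of 0 were not possible. The distances depended on the ranking. With summed in place of highest signal, 407 regions were chosen, of which 190 were among the members, their median distance was 8590 bp and 30.2% lay within 1 kb.

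**Figure D2:**
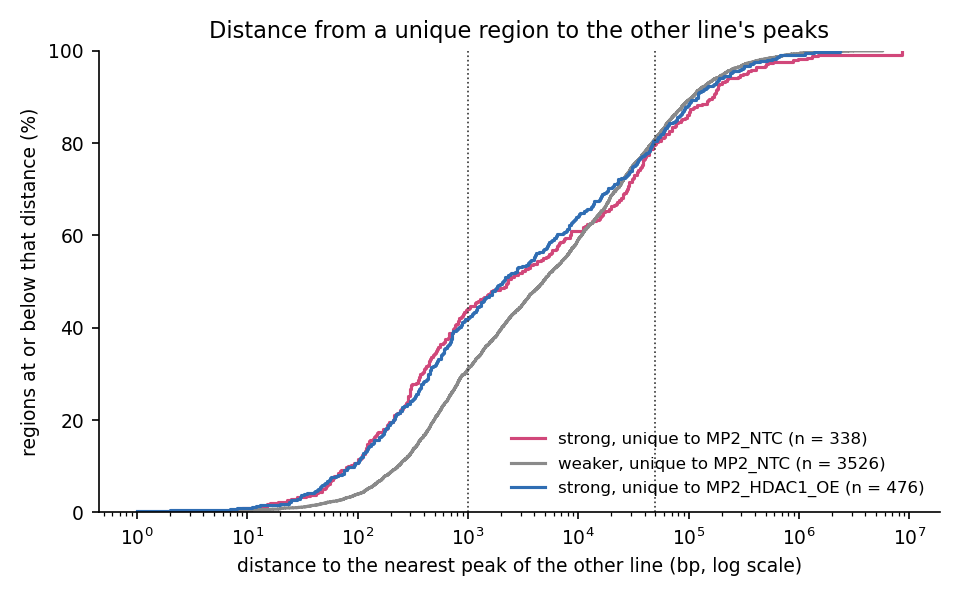
Lines give the cumulative percentage of unique regions (y axis) by distance to the nearest peak of the other line (x axis, bp, log scale), with dotted lines at 1 kb and 50 kb. At 1 kb the members (pink) stand at 44.1%, the strong regions unique to MP2_HDAC1_OE (blue) at 41.8% and the weaker unique MP2_NTC regions (grey) at 31.0%, and at 50 kb the 3 lines lie between 79.9% and 80.9%. Ranking by summed signal would put 30.2% of the chosen MP2_NTC regions within 1 kb.

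For members within 1 kb of an MP2_HDAC1_OE peak, the locus carried H3K27ac in both lines and the lists differed in which stretch of it was called. The median distance in these 149 members was 243 bp. The nearest MP2_HDAC1_OE peak was itself in a region shared with MP2_NTC in 93 of them (62.4%, 54.4% to 69.8%). That peak had a signal above a median of 69.4% of the MP2_HDAC1_OE peaks. At *CHD9* the member lay 68 to 461 bp before the nearest listed start. A separate MP2_NTC peak, from 24 bp before to 365 bp after that start, overlapped an MP2_HDAC1_OE peak from 8 bp before to 408 bp after it, which was above 92.3% of its list. At *RBBP7* the member lay 420 to 1264 bp before the start, and a shared region lay at the start itself. At *JUN*, the AP-1 transcription factor, the member (364 to 602 bp before the start) lay between 2 MP2_HDAC1_OE peaks, of which the upstream peak (714 to 922 bp before the start) was above 86.7% of its list. How much of this comes from where each call placed the edges of a peak was not tested. Merging regions up to 500 bp apart left 178 members, and requiring no MP2_HDAC1_OE peak within 5 kb left 152.

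**Figure D3:**
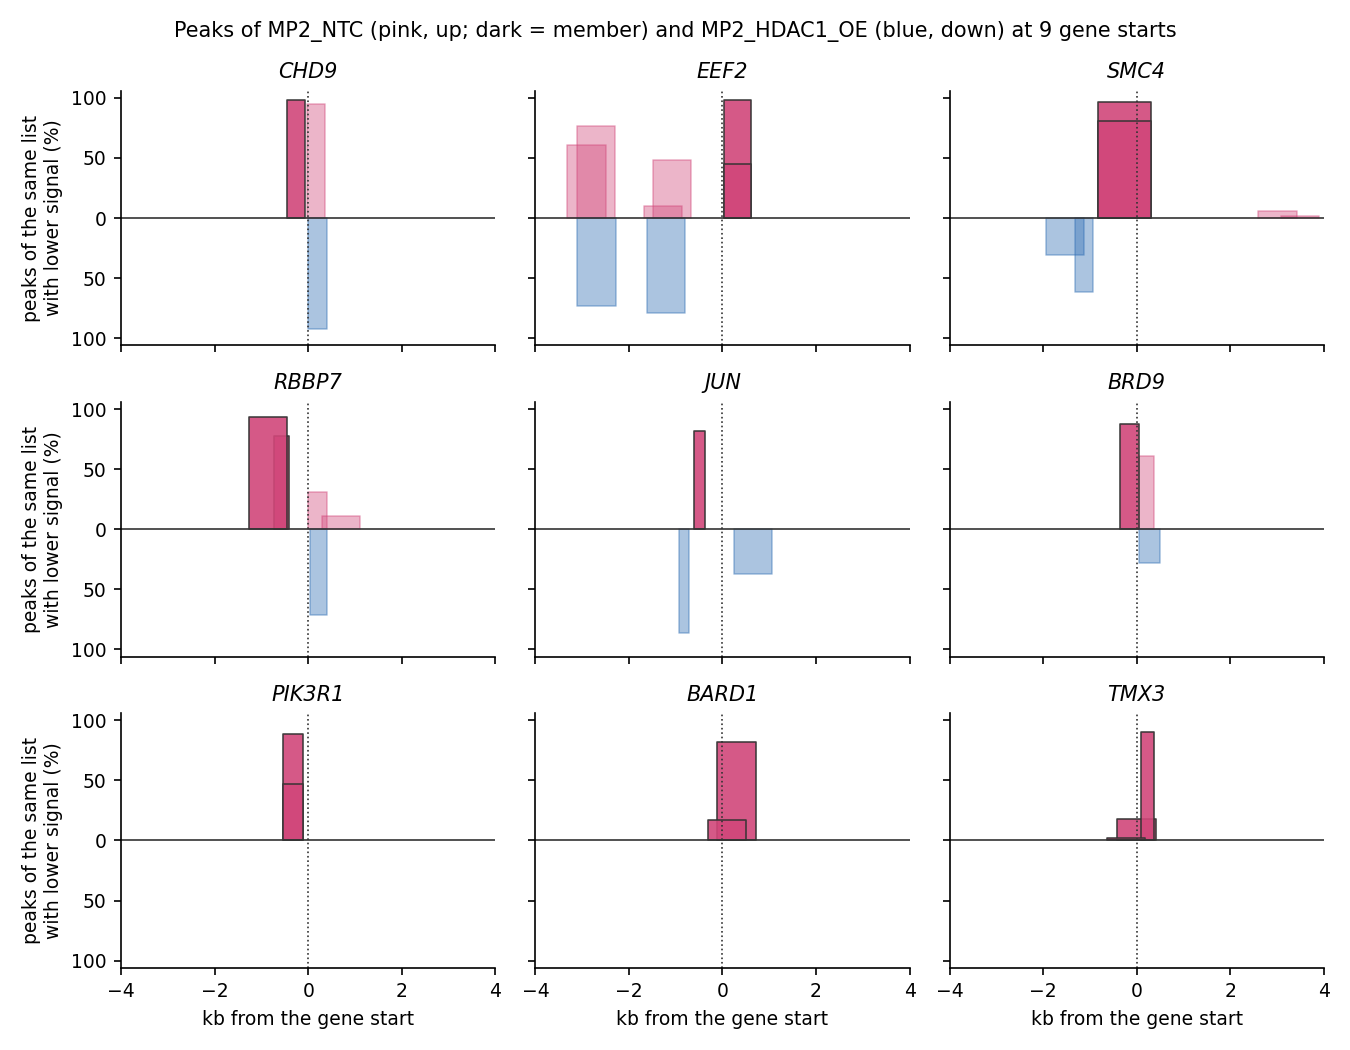
Boxes give the extent of single peaks relative to the listed gene start nearest the member's strongest summit (x axis, kb, with the gene reading to the right), and their height gives the percentage of peaks of the same list with a lower signal. MP2_NTC peaks point up (pink, dark where they form the member) and MP2_HDAC1_OE peaks point down (blue); the lower row (*PIK3R1*, *BARD1*, *TMX3*) has no MP2_HDAC1_OE peak in the 4 kb on either side.

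The 68 members over 50 kb from any MP2_HDAC1_OE peak mostly stood alone in the MP2_NTC list too. Their lack of an MP2_HDAC1_OE peak within 50 kb is how they were chosen. That choice also leaves out members with a shared region close by, so their isolation in MP2_NTC is partly built in. In 55 of them (80.9%, 70.0% to 88.5%) MP2_NTC had no other peak within 50 kb either. Weaker unique MP2_NTC regions at such distances were alone in 81.8% (551 of 674), and the difference of -0.87 points had an interval from -12.1 to 7.33. A promoter window was hit by 59 of the 68 (86.8%, 76.7% to 92.9%), against 71.1% of the members within 1 kb, a difference of 15.6 points (3.57 to 25.5).

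Beyond chromosome 21, the farthest member lay between *TMX3*, which encodes a disulfide isomerase of the endoplasmic reticulum, and *CCDC102B* (chr18:68714700-68715747). It had a signal of 90.2, above 90.2% of the MP2_NTC peaks, and the nearest MP2_HDAC1_OE peak was 1.49 Mb away. The region at *ASCC3*, a DNA helicase (chr6:100880832-100882049), had a signal of 73.0 and a distance of 1.31 Mb. The region at the lncRNA *GLIDR* (chr9:39808634-39810170) combined 4 MP2_NTC peaks, with a signal of 74.1 and a distance of 1.18 Mb. The shared promoter of *CCDC50* and *UTS2B* (chr3:191328719-191329795) had a signal of 77.2 at 984 kb.

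*PIK3R1* encodes the p85alpha regulatory subunit of PI3-kinase, and its member (chr5:68215227-68215638) had a signal of 87.6 at 878 kb. *CD82* encodes a tetraspanin known as a suppressor of metastasis, and its member (chr11:44564563-44565382) had a signal of 73.3 at 581 kb. *BARD1* encodes the partner of BRCA1, and its member (chr2:214808973-214809995), which *SNHG31* shares, had a signal of 75.6 at 502 kb. The member of *HSPA13*, of the HSP70 chaperone family (chr21:14383501-14384521), had a signal of 71.7 at 489 kb. In each of these loci the MP2_NTC list had no other peak within 50 kb.

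The 3 members farthest of all formed 1 cluster on the short arm of chromosome 21, between 6368858 and 6371802. Their signals were 89.0, 99.3 and 157, and the nearest MP2_HDAC1_OE peak was 8.50 Mb away. The first MP2_HDAC1_OE peak on chromosome 21 began at 14873769. With the *HSPA13* member, 4 members followed each other here with no MP2_HDAC1_OE region between them, and this was the only run of 3 or more among all members. A weaker MP2_NTC region at 9129131 to 9129950 had a signal of 36.0. Promoters around the cluster are near-identical to promoters at the other end of the chromosome. Over 300 bases, *LOC102724428* matched *SIK1* at 300 bases, *LOC102724560* matched *CBS* at 299 and *LOC102724594* matched *U2AF1* at 299. The sequence under the 3 members was not compared, and their position is uncertain where reads fit both copies.

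Members lay in promoter windows less often than the strong shared regions. The window ran from 2 kb before to 1 kb after a start, or, for a gene with no start in the reference, over the same lengths at each of its ends. In this window lay 256 of the 338 members (75.7%, 70.9% to 80.0%), 237 of them at a protein-coding gene. A further 56 (16.6%) lay elsewhere in a gene and 26 (7.69%) outside genes. Of the 4109 strong shared regions 86.9% were in a window, a difference of -11.1 points (-16.1 to -6.72). When the summit had to lie in the window, the shares were 74.9% and 85.9%, a difference of -11.0 points (-16.0 to -6.54). Of the weaker unique MP2_NTC regions 50.4% were in a window, which was 25.3 points lower than the members (20.2 to 29.9). Of the strong regions unique to MP2_HDAC1_OE 70.6% were in a window, and the interval of that difference ran from -1.08 to 11.2 points. The MP2_NTC sets were not matched for signal. Its median was 79.7 in members, 88.3 in strong shared regions and 42.2 in weaker unique regions. How much of these differences goes with signal was not tested.

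**Figure D4:**
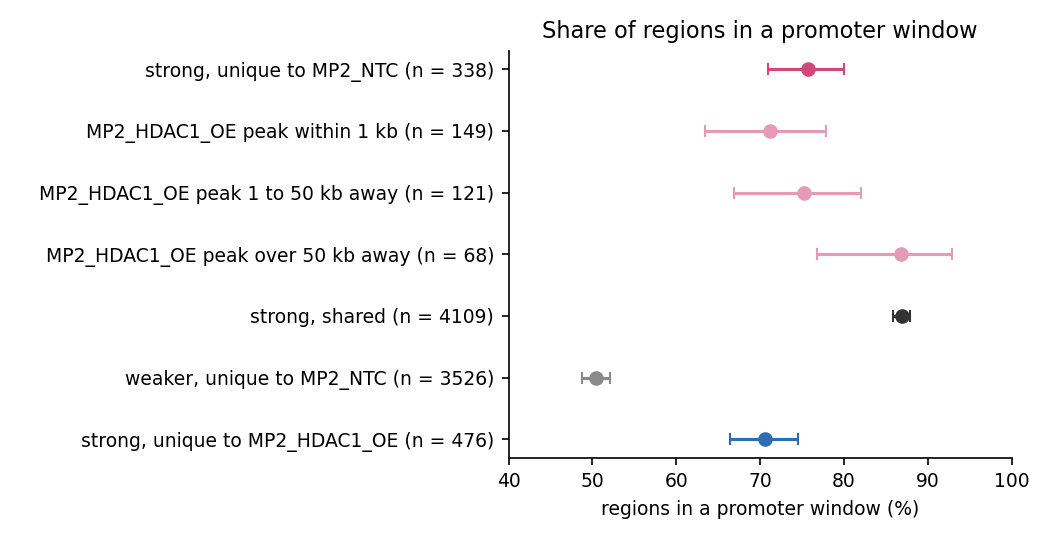
Points give the percentage of regions in a promoter window (x axis) with 95% Wilson intervals for the members, for the members by distance to an MP2_HDAC1_OE peak, and for 3 other sets of regions. The members stand at 75.7%, below the strong shared regions at 86.9% and above the weaker unique MP2_NTC regions at 50.4%, and members over 50 kb from an MP2_HDAC1_OE peak stand at 86.8%. The sets were not matched for signal.

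The share of members with the strongest summit near a start lay between those of strong shared and weaker unique MP2_NTC regions. Of the 203 members in a coding window whose nearest coding start had a known strand, 82 (40.4%) had the summit within 250 bp of the start. This was 51.4% for strong shared regions, a difference of -11.0 points (-17.7 to -3.87), and 33.4% for weaker unique regions, a difference of 7.04 points (0.03 to 14.3). The median summit was 174 bp after the start in members and 142 bp after it in strong shared regions. It was after the start in 70.9% and 64.3%, and the interval of that difference ran from -0.13 to 12.8 points. In weaker unique regions it was after the start in 62.7%, which was 8.28 points lower than in members (1.21 to 14.7). Here too the sets were not matched for signal. Members had a median extent of 820 bp (quartiles 421 and 1022 bp). The median was also 820 bp in strong shared and in weaker unique regions. A single peak formed 134 of the members (39.6%), against 27.3% of the strong shared and 69.6% of the weaker unique regions. Members within 1 kb of an MP2_HDAC1_OE peak were narrower, with a median of 580 bp, than those over 50 kb away, with a median of 820 bp. Exactly 820 bp wide were 8.72% and 23.5% of these, and what sets this width was not tested.

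The promoters of members resembled those of strong shared regions in base composition. Over 250 bases before to 50 bases after the start, 88.4% of 215 member promoters were CpG-rich (GC content of at least 50% and an observed to expected CpG ratio of at least 0.6). The share was 89.3% of 3374 strong shared promoters and 60.0% of all 21942 coding promoters. The GC box was in 77.7%, 69.9% and 56.3% of these sets, and the difference of members from strong shared promoters was 7.79 points (1.57 to 13.1). The GC box was in 77.0% of weaker unique MP2_NTC promoters and 74.7% of the promoters of strong regions unique to MP2_HDAC1_OE, so a high share was not particular to members. The TATA box (TATAAA) was in 7.91%, 4.80% and 9.50%, a difference of 3.11 points (0.09 to 7.55), and in 3.48% and 3.93% of the promoters of those other unique sets. The other differences had intervals that included 0. They concerned the CpG-rich class and the motifs of AP-1 (TGANTCA, in 2.33% of member promoters), CRE (TGACGTCA, 4.65%), ETS (CCGGAAGT, 11.2%), NRF1 (5.58%), CCAAT (36.7%), YY1 (AAGATGGCG, 8.37%) and ZBTB33 (TCTCGCGA, 2.33%). Among all coding promoters these motifs were in 6.17%, 2.25%, 5.33%, 2.34%, 34.7%, 2.42% and 1.56%. Both strands were searched, no motif contains another, and with 10 features the intervals are not adjusted for their number.

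The members touched the promoter windows of 380 genes, 292 protein-coding and 88 lncRNA genes. In 112 of the 256 promoter members (43.8%) a window that the member touched also held an MP2_HDAC1_OE peak (37.8% to 49.9%). In the other 144 (56.3%) it did not. By gene, 148 protein-coding and 49 lncRNA genes had no MP2_HDAC1_OE peak in any window. Members lack an overlapping MP2_HDAC1_OE peak by selection, so these counts are partly built in. No share over other regions was set beside them.

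The promoter windows of 7 genes held 2 members each. Both members of *BAZ1B*, a subunit of the WICH chromatin remodeling complex, flanked its start (chr7:73521925-73522326 and chr7:73522362-73522765) with signals of 83.5 and 77.9. The nearest MP2_HDAC1_OE peak was 34.5 kb away. *PAN3*, a subunit of a poly(A) nuclease, and its antisense RNA *PAN3-AS1* shared 2 members (chr13:28138186-28138409 and chr13:28138584-28139170) with signals of 82.2 and 75.1, and the nearest MP2_HDAC1_OE peak was 184 kb away. *DPM1*, an enzyme of dolichol-phosphate mannose synthesis, and its neighbor *MOCS3* shared 2 members (chr20:50958026-50958436 and chr20:50958463-50959282) with signals of 91.3 and 98.7, at 25.6 kb or more. *HIRA*, a histone H3.3 chaperone, and *MRPL40*, a protein of the mitochondrial ribosome, shared 2 members (chr22:19431879-19432403 and chr22:19432490-19433068) with signals of 105 and 86.4. There an MP2_HDAC1_OE peak lay 7 bp from the nearer member, and it was above 1.66% of its list.

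Neighboring members outside promoter windows were found inside *AMOTL2*, an angiomotin protein of the Hippo pathway, with signals of 93.9 and 79.0 at 553 bp and 6.89 kb from an MP2_HDAC1_OE peak. In *SPRY4-AS1*, upstream of *SPRY4*, a feedback inhibitor of receptor tyrosine kinase signaling, the signals were 94.8 and 69.9 at 535 bp and 1.36 kb. These loci were dense in peaks of both lists, with 25 other MP2_NTC peaks and 33 MP2_HDAC1_OE peaks within 50 kb of the stronger *SPRY4-AS1* member.

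The gene lists compared with the members covered chromatin, signaling, cell identity and drug response, with 215 genes in 14 lists. Of these genes 6 held a member (2.79%), against 380 of all 38147 genes placed (0.996%). Among genes with any region among the strongest 33.3%, the shares were 9.68% and 7.42%. The lists of HDAC complexes held 2 members in 21 genes, *RBBP4* and *RBBP7*, which encode histone-binding chaperones of the NuRD and SIN3 complexes. The *RBBP7* member (chrX:16870782-16871626) had a signal of 98.2 and lay 465 bp from an MP2_HDAC1_OE peak. The *RBBP4* member (chr1:32651250-32651707) had a signal of 79.6 and lay 216 bp from an MP2_HDAC1_OE peak above 90.0% of its list.

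The list of histone acetyltransferases and acetyl-lysine readers held 2 members in 13 genes. The *KAT8* member (chr16:31116725-31117544), at an acetyltransferase of histone H4, had a signal of 72.5 and lay 13 bp from an MP2_HDAC1_OE peak. The member between *BRD9*, a bromodomain subunit of a BAF complex, and *TRIP13* (chr5:892509-892899) had a signal of 85.3 and lay 16 bp from one. The 9 AP-1 genes held 1 member, at *JUN* (chr1:58784411-58784649, signal 75.4, distance 112 bp). The 18 cell cycle genes held 1 member, before *CDKN2C*, the CDK4 and CDK6 inhibitor p18, in a stretch it shares with *FAF1* (chr1:50959431-50960653, signal 71.4, distance 7.40 kb). All 6 genes also had an MP2_HDAC1_OE peak in a promoter window. The lists of Ras-related GTPases, YAP and TEAD, apoptosis, hypoxia, NRF2, drug transport and metabolism, matrix and invasion, and the cell type lists held 0 members in a promoter window, which speaks only of the genes listed. Outside promoter windows, some members had a listed gene as their nearest coding gene. These were *AMOTL2* of the YAP and TEAD list (signals 93.9 and 79.0), *RRAS* of the GTPase list (94.2), *MYC* of the cell cycle list (75.2) and *ITGB4* of the matrix list (69.1). Pathway genes that were not on the lists also held members in a promoter window, chosen here after their values were seen. The Hippo kinase gene *LATS1* had a member at 28.0 kb, and the Ras-related GTPase gene *RIT1* had one with a signal of 70.9 at 16.1 kb. The apoptosis regulator gene *CFLAR* (signal 70.1, 467 bp) and the glycolysis gene *PFKM* (signal 74.3, 614 bp) also held members and had an MP2_HDAC1_OE peak in a window.

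The labelled cell type was checked by promoter peaks of markers. Of 8 epithelial and ductal markers, 3 had an MP2_NTC peak and 5 an MP2_HDAC1_OE peak, with *KRT8* and *SOX9* in MP2_HDAC1_OE alone. *EPCAM*, *CDH1* and *KRT7* had none in either list. Of 15 mesenchymal genes 5 had a peak in each list, with *TGFBR1* in MP2_NTC alone and *AXL* in MP2_HDAC1_OE alone. *ZEB2*, *SNAI1*, *SNAI2*, *TWIST1*, *CDH2*, *FN1*, *SPARC*, *TGFB1* and *TGFBR2* had none in either list. Of 12 markers of other cell types 1 (*CD68*) had a peak in both lists.

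Members also lay near microRNA genes. This comparison was added after the regions were seen. Within 5 kb of a hairpin lay 16 members (4.73%, 2.93% to 7.55%), near 18 hairpins, against 2.85% of the strong shared regions (2.38% to 3.40%), and these intervals overlap. The mature sequences near the *SMC4* member, the *MIR200CHG* member and a member before MIR21 are shown because these microRNAs are well studied in cancer. Capitals mark the seed (bases 2 to 8), and sequences are from RefSeq (GRCh38.p14).
miR-15b-5p: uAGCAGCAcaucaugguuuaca
miR-16-5p: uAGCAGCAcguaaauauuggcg
miR-200c-3p: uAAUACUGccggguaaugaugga
miR-141-3p: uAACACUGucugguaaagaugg
miR-21-5p: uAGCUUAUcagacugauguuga
miR-15b-5p and miR-16-5p share 1 seed, while miR-200c-3p, miR-141-3p and miR-21-5p each have their own. MIR15B and MIR16-2, known to target *BCL2* and cyclins, have their hairpins inside *SMC4* (chr3:160404588-160404685 and chr3:160404745-160404825), 3.73 kb and 3.89 kb after the *SMC4* member. MIR200C and MIR141, known to repress *ZEB1* and *ZEB2* in epithelial cells, have their hairpins 1.53 kb and 1.93 kb after a member at *MIR200CHG* (chr12:6961384-6962167, signal 78.7). An MP2_HDAC1_OE peak above 98.1% of its list lay 487 bp from that member. The hairpin of MIR21, a microRNA abundant in many carcinomas, lies 625 bp after a member (chr17:59839249-59840641, signal 79.5). There the nearest MP2_HDAC1_OE peak was 1.60 kb away and above 71.4% of its list. The peak lists do not measure microRNA levels.

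The members were spread over all chromosomes listed. Chromosome 1 held 37 members, chromosome 5 held 28 and chromosome 17 held 26. The share was highest on chromosome 21, with 10 of 60 regions (16.7%, 9.31% to 28.0%). Without the first 15 Mb of that chromosome it was 6 of 56 (10.7%, 5.00% to 21.5%), and the background over all chromosomes was 7.60%. It was 13.3% on chromosome 13 and 12.8% on chromosome 4. The interval included 7.60% on every chromosome other than 21. It was lowest on chromosome 10, with 5 of 148 (3.38%, 1.45% to 7.66%). On chromosome 10 the share of strong MP2_HDAC1_OE regions without an MP2_NTC peak was 11.0% and on chromosome 21 it was 5.66%. With 23 chromosomes the intervals are not adjusted for their number.

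**Figure D5:**
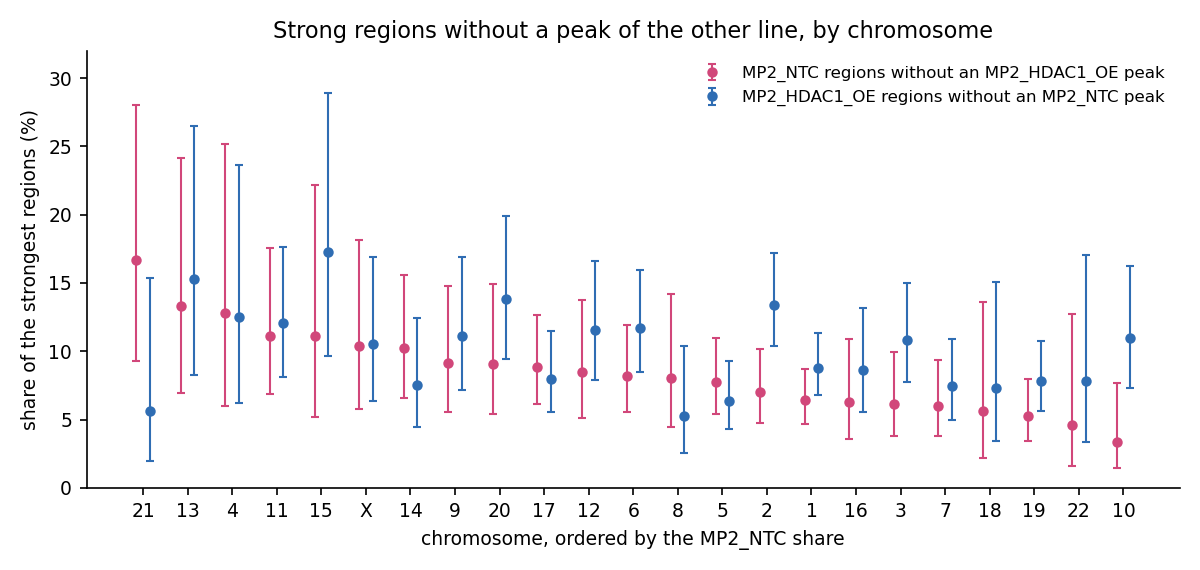
Points give, for each chromosome (x axis), the percentage of the strongest regions of a line without a peak of the other line (y axis), with 95% Wilson intervals, in pink for MP2_NTC and in blue for MP2_HDAC1_OE. Chromosome 21 has the highest MP2_NTC share (16.7%) and chromosome 10 the lowest (3.38%), and the intervals are wide.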

How the data were processed

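H3K27ac ChIP-sequencing was measured in MP2_HDAC1_OE and MP2_NTC cells. The authors followed ENCODE protocols and deposited 1 list of reproducible peaks (IDR optimal set) per line, with a signal and a score for each of 25045 MP2_HDAC1_OE and 22569 MP2_NTC peaks. Per the labels the build is hg38, and the submitters' processing notes name BWA 0.7.12, SAMtools and Picard 1.88. The peak caller is not given in the sources used here. The deposited signal has no stated scaling between the lists and was used to rank within a list. The deposited score follows the reproducibility test and was used as a description. The lists hold no counts, so depth and the precision it gives are unknown.

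Peaks were merged at 1 bp of overlap and distances were taken edge to edge. The members and gene lists were chosen with earlier results of these data known. Genes came from RefSeq tables (GRCh38.p14), with 34960 starts. Of these, 70.9% were the 5' end of their gene. For 10953 genes without a start, either end was used. In MP2_NTC 54.1% of summits lay within 1 kb of a coding start, against 2.95% after a shift of 100 kb. No start on chromosome 8 was in the table.

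The text names genes of the 12 strongest and 12 farthest members, the 5 regions on each side of the threshold, genes with 2 members or more, list genes with a member, runs of 3 or more members, and *HDAC1*. Some of these are not reported here. *SPRY4-AS1*, *AMOTL2*, *RRAS*, *MYC*, *ITGB4*, *LATS1*, *RIT1*, *CFLAR*, *PFKM*, the microRNAs and the gene families were named after their values were seen. Of these, *AMOTL2*, *RRAS*, *MYC* and *ITGB4* were on the fixed lists, but their members lay outside promoter windows. Python 3.11.15 was used with numpy, pandas and matplotlib. On simulated data with single peaks at well separated loci, all 236 members among 2100 regions were found with the exact distance. Regions that combine several peaks of a line were not simulated. Alternatives covered the ranking, the threshold, the merging, the overlap and the window. HDAC1 ChIP-seq, RNA-seq and signal tracks were not analysed here.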

Additional observations from a re-analysis of the deposited data

How the results depend on the processing

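Of 32 alternative settings over 4 results (the number of members, the median distance, the promoter share and the chromosome 21 share), 23 gave a value within the limits set for no change, which were 1.5 times the count or the 95% interval of the value.

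The number of members, 338 as reported, was 198 with the strongest 25% and 783 with the strongest 50% of the ranking. It was 178 and 144 when regions up to 500 bp and 1 kb apart were merged, and 152 when no MP2_HDAC1_OE peak was allowed within 5 kb. With single MP2_NTC peaks in place of regions it was 769 at an overlap of 1 bp and 2289 at 50% of both peaks. Ranking by summed signal moved the median distance from 2286 bp to 8590 bp. Protein-coding genes alone moved the promoter share from 75.7% to 70.1%. The share on chromosome 21 without its first 15 Mb was 10.7%, an alternative chosen after seeing the data. The causes were not tested, other than that a higher or lower cutoff takes fewer or more regions by construction.

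No paired analysis was possible because each peak list pools both samples of a line. For the same reason leaving out a replicate was not possible. Depth is unknown, so H3K27ac under the threshold of the peak call was not measured here.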

Other observations

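Some gene families were counted among the members. They were picked after the regions were seen, so their counts are descriptions. Of 40 histone genes with a region among the strongest 33.3%, 12 held a member (30.0%, 18.1% to 45.4%), against 7.27% of all such protein-coding genes. Histone genes share windows, so 1 region can count for several of them. This was so at *H2AC6* with *H2BC4*, *H2AC12* with *H2BC12*, and *H2AC25* with *H2BC26*. The 12 genes therefore stand for fewer regions. The interval treats the genes as independent and is therefore too narrow. The strongest member at a histone gene, at *H2AC13*, *H2BC13* and *H3C10*, had a signal of 110. It lay 559 bp from an MP2_HDAC1_OE peak. Of the 12 genes, 10 also had an MP2_HDAC1_OE peak in a window, and *H1-3* and *H2AZ2* did not. Histone genes have close copies, so the assignment of reads among them is uncertain.

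Of 48 genes of the mitochondrial ribosome with such a region, 6 held a member (12.5%, 5.86% to 24.7%). That interval includes the 7.27% of all such protein-coding genes. *MRPL23* had a signal of 107 at 173 kb from an MP2_HDAC1_OE peak, and *MRPL46* and *MRPS11* shared 1 member at 153 kb with a signal of 71.9. The cytoplasmic ribosome had 3 of 54 (5.56%) and ZNF genes 10 of 170 (5.88%), both under 7.27% with intervals that include it. Among these *ZNF708* had a signal of 104 at 176 kb and *ZNF678* a signal of 90.1 at 171 kb.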
